A study of Homo sapiens with 4 samples.

Results

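C/D box small nucleolar RNAs (snoRNAs) encoded outside GAS5 were examined in Caco-2, a cell line from a human colorectal adenocarcinoma that forms an enterocyte-like epithelium once confluent. The members were all genes whose symbol begins with SNORD and whose probe set names that gene alone, leaving out the GAS5-hosted SNORD44, SNORD47 and SNORD74 to SNORD81 and the imprinted families SNORD113 to SNORD116. This gave 62 genes of the 18417 genes with 1 symbol on the array, each read by 1 probe set. A further 29 probe sets name a SNORD of the same kind together with its host or a related copy and were not used, among them those of U3. Members were chosen by symbol, and the probe set of each gene was selected on the highest mean level over the 4 arrays; each gene had 1 candidate. The set as a whole was chosen with earlier results of these data known, so its counts are a description.

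Each of 4 arrays held RNA pooled from 3 samples: plates with 2 mM cholate, plates with vehicle, Transwell with apical 2 mM cholate and Transwell with vehicle. The exposure lasted 3 h in every condition, and the cholate solution was a buffered salt solution without calcium (no source used here says if vehicle cells received it too). Plates were regular 6-well plates and Transwell inserts were porous, collagen-coated membranes with separate apical and basolateral compartments. The labels give 21 days of differentiation for all 4 conditions, while the protocol for culture has plates used 14 days, and inserts 14 to 21 days, from seeding. With 1 array per condition no value has a replicate check, and the number of arrays limits the precision. Epithelial markers were present on all arrays (EPCAM averaged 12.7 and VIL1 11.4 log2 units), while PTPRC of leukocytes averaged 2.96, under the floor of 4.84 below which values are treated as near background. At or above the floor were 9 of 9 measured epithelial, 2 of 4 leukocyte, 4 of 4 fibroblast and 1 of 3 endothelial markers. For cholate minus vehicle the leukocyte markers CD68 and CD14 stood at 0.42 and -0.06 on plates and 0.10 and 0.21 on Transwell, and the endothelial marker PECAM1 at -0.35 and 0.05. The fibroblast marker PDGFRA stood at -0.77 on plates, the one marker of these types past 1.5-fold there, and at -0.03 on Transwell. The part of other cell types in the results was not tested.

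C/D box snoRNAs are short nucleolar RNAs, most of them cut from introns of longer host genes as the intron is removed and debranched. Each carries the conserved C and D boxes, is bound by fibrillarin, NOP56, NOP58 and SNU13, and base-pairs with a target RNA to direct ribose methylation, mostly of ribosomal RNA. A few, such as U14 and U13, are instead or also needed for processing of the small-subunit rRNA. Many hosts encode ribosomal proteins or no protein at all. Transcripts of many such hosts begin with a C followed by further pyrimidines, as do mRNAs of the translation machinery in general.

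Of the 62 members, 60 lie within the span of another gene in the RefSeq table (40 genes in all), and SNORD13 and SNORD32B lie in none. The table gives no strand, so these spans were not checked for orientation. The start regions of 4 genes holding members higher in cholate on plates are shown because an intronic snoRNA is transcribed from its host's start. They were picked after the values were seen. They run from 100 bases before to 20 bases after the RefSeq start, in build GRCh38.p14. HSPA8 holds SNORD14C and SNORD14E (chr11:123062117-123062236, minus strand), SNHG5 holds SNORD50A and SNORD50B (chr6:85678714-85678833, minus strand), ZFAS1 holds SNORD12C (chr20:49278542-49278661, plus strand) and SNHG32 holds SNORD52 (chr6:31834816-31834935, plus strand). Capitals mark a run of pyrimidines that begins with C exactly at the start, or, in HSPA8, a match to GAANNTTC, the core of the heat shock element.
HSPA8: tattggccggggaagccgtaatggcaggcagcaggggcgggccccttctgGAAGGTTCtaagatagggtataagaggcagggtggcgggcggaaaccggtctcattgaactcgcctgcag
SNHG5: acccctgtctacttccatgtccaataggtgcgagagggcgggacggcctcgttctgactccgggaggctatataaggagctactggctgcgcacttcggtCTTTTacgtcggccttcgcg
ZFAS1: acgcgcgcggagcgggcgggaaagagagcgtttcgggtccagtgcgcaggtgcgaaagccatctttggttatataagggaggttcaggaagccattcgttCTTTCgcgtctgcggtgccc
SNHG32: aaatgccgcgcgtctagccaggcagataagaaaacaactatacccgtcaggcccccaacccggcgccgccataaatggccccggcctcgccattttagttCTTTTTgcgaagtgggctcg

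The start of SNHG5, ZFAS1 and SNHG32 thus opens with a pyrimidine run, and that of HSPA8 does not. A first base of C followed by 4 further pyrimidines, read on the gene's own strand, was found at the start of 13 of the 40 genes that hold members (32.5%), against 4.07% of 35116 RefSeq start windows. GAANNTTC, which reads the same on both strands, occurred in the 300-base windows of 4 of the 40 genes (10.0%) and in 6.77% of all windows. TGACGTCA, the full cyclic AMP response element and likewise its own reverse complement, occurred in 2 of the 40 (5.00%) and in 1.85% of all. These matches describe the letters of the windows and are not binding sites.

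The members covered most of the array's range. Mean log2 intensity over the 4 arrays lay between 2.74 and 12.4 with a median of 7.11, and 54 of the 62 means were at or above the floor; 6 members had all 4 values under it. SNORD33, a guide carried by the ribosomal protein gene RPL13A, had the highest mean (12.4), followed by SNORD13 (11.2) and SNORD28 (10.9). The lowest were SNORD13P1, a SNORD13 pseudogene (2.74), SNORD56B (4.01) and SNORD20 (4.07). Levels of different probe sets depend on their probes and give no order of RNA amounts.

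The first comparison asked how cholate differed from vehicle on each support. C/D box snoRNAs were higher in cholate on plates, and by less on Transwell. On plates 53 of 62 members (85.5%) lay above 0, against 47.9% of all genes. The median cholate minus vehicle difference was 0.43 log2 units, while the median over all genes was -0.01. At least 1.5-fold higher were 25 of 62 members (40.3%), against 1.35% of all genes (248), and 0 were at least 1.5-fold lower, against 1.92% (354). With each array centred on its median, 187 genes of the array were higher and 503 lower on plates, and with a further quantile normalization 207 and 444. On Transwell 40 of 62 lay above 0, the median was 0.13, and 3 were at least 1.5-fold higher (4.84%), against 0.44% of all genes; 0 were 1.5-fold lower, against 0.614%. These are counts over pairs of single arrays and not tests.

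**Figure D1:**
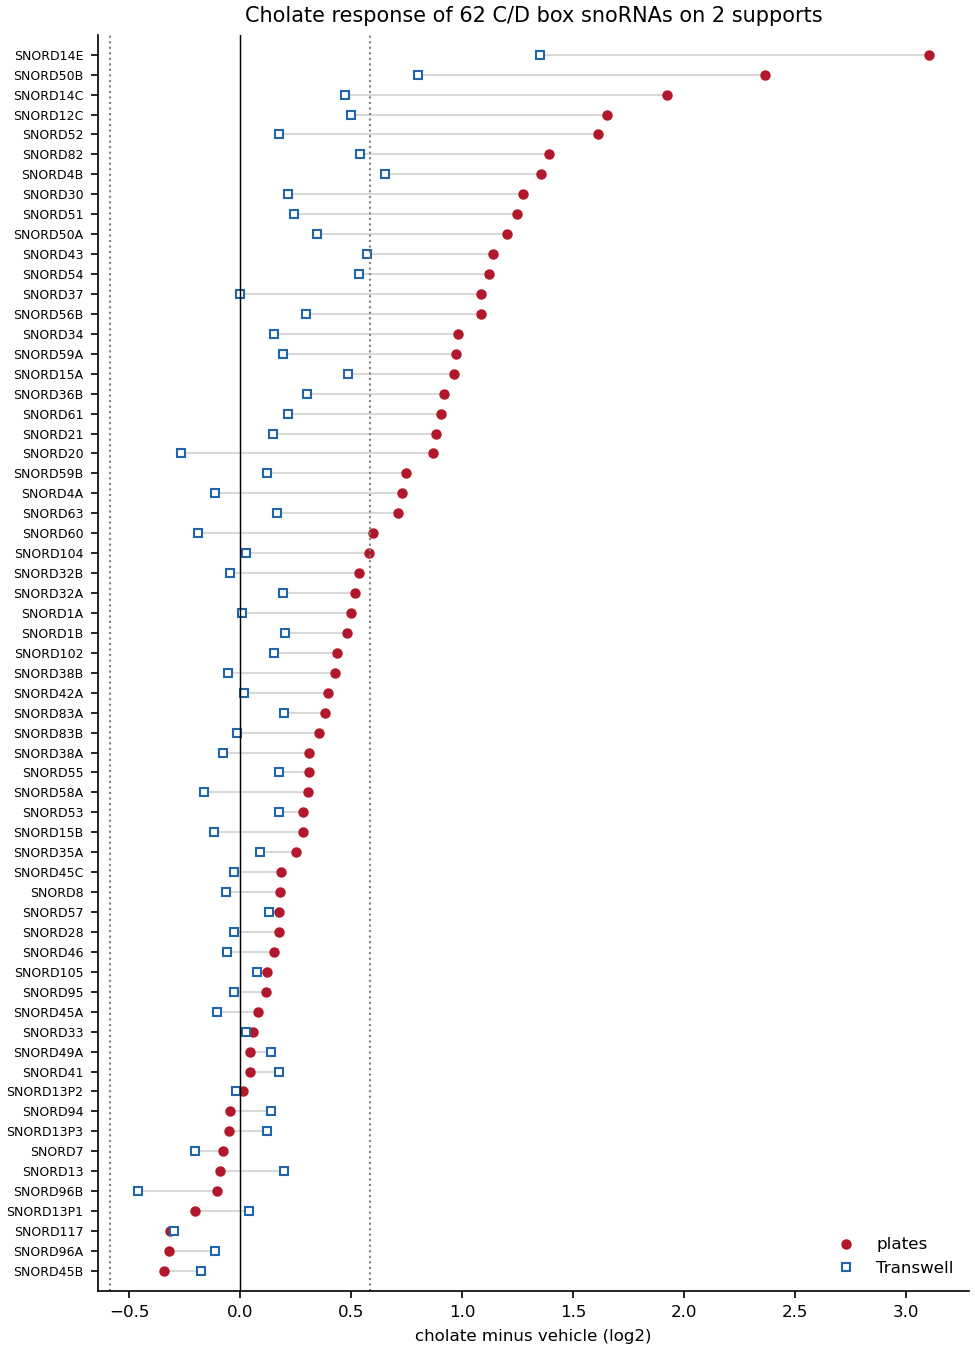
Cholate minus vehicle in log2 units (horizontal axis) for each of the 62 members (rows, ordered by the value on plates); red circles are plates, open blue squares Transwell, each a difference of 2 arrays, and dotted lines mark 1.5-fold. On plates 53 members lie right of 0 and 25 right of the 1.5-fold line, against 3 on Transwell.

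SNORD14E, a U14 RNA encoded in the chaperone gene HSPA8, read 10.82 in cholate and 7.71 in vehicle on plates, and 9.09 in cholate and 7.74 in vehicle on Transwell. The cholate minus vehicle difference was 3.10 log2 units on plates (8.60-fold) and 1.35 on Transwell (2.55-fold). It had the highest response on plates among all 18417 genes and ranked 2 on Transwell. Its 2 vehicle values were nearly equal, and the cholate value on plates stood above that on Transwell. SNORD14C, a second U14 RNA of the same gene, read 10.73 in cholate and 8.81 in vehicle on plates, and 9.79 and 9.32 on Transwell. Its differences were 1.92 and 0.47, ranks 9 and 197. U14 base-pairs with the small-subunit rRNA and is needed in yeast for its processing. The copies of U14 resemble each other, so their probe sets may share signal.

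SNORD50B and SNORD50A, the U50 RNAs of the non-coding gene SNHG5, guide methylation of the large-subunit rRNA. SNORD50B read 10.25 in cholate and 7.88 in vehicle on plates, and 8.93 and 8.13 on Transwell, a difference of 2.36 (5.15-fold, rank 7) and 0.80 (1.74-fold, rank 20). SNORD50A read 10.68 and 9.47 on plates, and 9.98 and 9.64 on Transwell, 2.30-fold on plates and 1.27-fold on Transwell. Both were highest in plate cholate and lowest in plate vehicle. SNORD12C, carried by the non-coding gene ZFAS1, read 9.39 in cholate and 7.74 in vehicle on plates, and 8.68 and 8.18 on Transwell (1.65 and 0.50).

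SNORD4B, carried by RPL23A, was the third member at 1.5-fold on both supports besides SNORD14E and SNORD50B. It read 8.03 in cholate and 6.67 in vehicle on plates, and 7.18 and 6.53 on Transwell (1.35 and 0.65). Being at least 1.5-fold higher on both supports held for these 3 of 62 members (4.84%), against 0.152% of all genes, and 0 were lower on both, against 0.369%. SNORD43 of RPL3 lay just under 1.5-fold on Transwell, with 8.88 in cholate and 7.74 in vehicle on plates, and 8.42 and 7.84 on Transwell (1.14 and 0.57). SNORD54 of RPS20 read 7.67 and 6.55 on plates, and 7.27 and 6.73 on Transwell (1.12 and 0.54). SNORD15A of RPS3, a guide for the large-subunit rRNA, read 9.18 and 8.21 on plates, and 8.53 and 8.04 on Transwell (0.96 and 0.48). These members were named for a response of the same sign on both supports, so higher cholate values on both follow from the choice. In each of these members the gap was wider on plates.

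SNORD82 of the nucleolin gene NCL completes the 10 members highest in cholate on both supports. It read 5.87 in cholate and 4.48 in vehicle on plates, and 4.79 and 4.25 on Transwell (1.39 and 0.54). All its values but the plate cholate one lie under the floor.

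**Figure D2:**
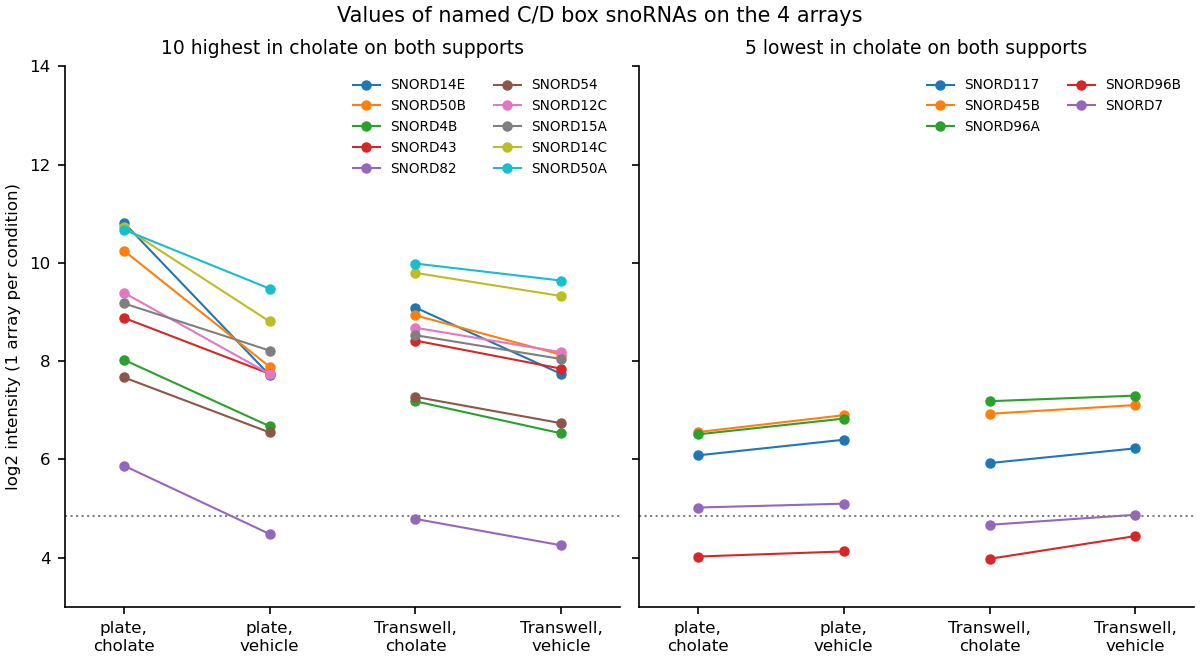
Log2 intensity (vertical axis) on the 4 arrays for the 10 members highest (left) and the 5 lowest (right) in cholate on both supports; each point is 1 array, lines join cholate and vehicle of 1 support, and the dotted line is the floor of 4.84. SNORD14E stands at 10.82 in plate cholate and 9.09 in Transwell cholate, against 7.71 and 7.74 in vehicle.

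A second set was higher on plates with little difference on Transwell. SNORD52, carried by the non-coding gene SNHG32, read 9.33 in cholate and 7.71 in vehicle on plates, and 8.10 and 7.92 on Transwell (1.61 and 0.18). SNORD30 of SNHG1 read 10.61 and 9.34 on plates, and 10.37 and 10.16 on Transwell (1.27 and 0.21). SNORD51 of the elongation factor gene EEF1B2 read 7.0 and 5.75 on plates, and 5.78 and 5.54 on Transwell (1.25 and 0.24). For SNORD30 the Transwell vehicle value lay closer to plate cholate than to plate vehicle, whereas for SNORD52 and SNORD51 both Transwell values lay near plate vehicle. SNORD37 of EEF2 stood at 1.08 on plates, with a plate vehicle value of 3.91, and had exactly the same deposited value (3.93) on both Transwell arrays.

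Members with a plate difference between 1.5-fold and 2-fold were SNORD34 (0.98), SNORD59A (0.97), SNORD15A, SNORD36B (0.92), SNORD61 (0.90), SNORD21 (0.88), SNORD20 (0.87), SNORD59B (0.75), SNORD4A (0.73), SNORD63 (0.71) and SNORD60 (0.60). SNORD60 was the last inside the 1.5-fold line and SNORD104, at 0.58, the first outside it. Of the 25 members at 1.5-fold on plates, 21 also lay above 0 on Transwell, and 5 had a value under the floor on at least 1 array. The members at 1 log2 unit or more on plates numbered 14, of 72 such genes on the whole array.

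Members lower in cholate on both supports differed by less than 1.5-fold. SNORD117 of DDX39B read 6.08 in cholate and 6.40 in vehicle on plates, and 5.92 and 6.22 on Transwell (-0.32 and -0.30). SNORD45B of RABGGTB read 6.56 and 6.90 on plates, and 6.93 and 7.10 on Transwell (-0.34 and -0.18). SNORD96A of RACK1 stood at -0.32 and -0.11. SNORD96B, with all values under the floor, stood at -0.10 and -0.46, and SNORD7, a guide for the spliceosomal U6 RNA, at -0.08 and -0.20. These 5 were the only members below 0 on both supports (8.06%), against 30.2% of all genes. Above 0 on both supports were 36 (58.1%), against 28.2%.

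SNORD13 (U13) has its own promoter and takes part in maturation of the small-subunit rRNA. It read 11.04 in cholate and 11.13 in vehicle on plates, and 11.47 and 11.27 on Transwell (-0.09 and 0.20), the most positive difference of responses among the members (0.29). Its pseudogene copy SNORD13P3 stood at -0.05 and 0.12, and may share signal with it. SNORD13P2 (0.01 and -0.02) and SNORD13P1 (-0.20 and 0.04) likewise lay near 0. The U14 RNAs SNORD14C and SNORD14E, which also serve the small subunit, stood at 1.92 and 3.10 on plates.

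Over the 62 members the responses on plates and Transwell, which share no array, correlated at r of 0.80 (Spearman's rho 0.66), against r of 0.36 over all 18417 genes. The points share their arrays, and some share a host or a sequence, so this is a description. The slope of the Transwell on the plate response was 0.34, and 53 of 62 members had the larger response on plates (85.5%), against 46.6% of all genes. The Transwell minus plate response had a median of -0.39 over the members and 0.02 over all genes. At least 1.5-fold lower in this difference were 21 members (33.9%), against 1.69% of all genes, and 0 were higher, against 1.79%. SNORD14E (-1.75), SNORD50B (-1.56) and SNORD14C (-1.45) had the most negative values. After SNORD13, SNORD13P1 (0.25) and SNORD96A (0.21) had the most positive. The difference uses all 4 arrays and has no test.

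Mean level and plate response correlated at r of 0.06 over the 62 members. In the 31 members with the higher means the median plate response was 0.52, and in the other 31 it was 0.43.

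Members of 1 host are set side by side here, each read by its own probe set at its own level. RPL13A carries SNORD32A, SNORD33, SNORD34 and SNORD35A, of which the first, second and last are known from rodent cells as mediators of lipotoxic and oxidative stress. On plates they stood at 0.52, 0.06, 0.98 and 0.25, and on Transwell at 0.19, 0.03, 0.15 and 0.09. SNORD33 read 12.32 in cholate and 12.26 in vehicle on plates, where SNORD34 read 8.78 in cholate and 7.80 in vehicle. Within RPL23A, SNORD4B stood at 1.35 on plates, SNORD4A at 0.73 and SNORD42A at 0.40. Within RPL3, SNORD43 stood at 1.14, while SNORD83A and SNORD83B, which resemble each other, stood at 0.38 and 0.35.

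The members of RABGGTB, a subunit of the Rab geranylgeranyl transferase, were spread around 0, with SNORD45C at 0.18, SNORD45A at 0.08 and SNORD45B at -0.34. In SNHG1, SNORD30 (1.27) and SNORD28 (0.18) differed by 1.10 log2 units, and in RPS3, SNORD15A (0.96) and SNORD15B (0.28) differed by 0.68. SNORD50A and SNORD50B of SNHG5 differed by 1.16 and the U14 RNAs of HSPA8 by 1.18. Over the 29 pairs of members within a gene the median gap on plates was 0.44, and over all 1891 pairs of members it was 0.57.

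Host transcripts were measured through 1 probe set of their own in 25 of the 40 genes. On plates 0 of these 25 were 1.5-fold higher, against 1.35% of all genes, and 0 lower, against 1.92%. With 25 genes these counts are near the share of all genes. The 25 lay between -0.27 and 0.22 on plates, with a median of -0.05. On Transwell they lay between -0.26 and 0.17 with a median of -0.01. HSPA8 read 13.3 on average and stood at -0.05 on plates and -0.06 on Transwell, beside 3.10 and 1.35 for SNORD14E. The highest mean of any gene was 13.9, and whether differences are compressed at such high values was not tested. ZFAS1 stood at 0.14 and -0.02 beside 1.65 and 0.50 for SNORD12C. NCL stood at -0.27 and -0.11, RPL23A at 0.04 and -0.05, RPL3 at -0.01 and 0.01, RPS3 at -0.00 and 0.02 and RPS20 at 0.11 and 0.17.

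Of the 35 members with a measured host, 30 lay above it on plates and 26 on Transwell, with a median gap of 0.68 and 0.15 log2 units. Across these 35 points, which share arrays and hosts, the response of member and host correlated at r of 0.20 on plates and 0.01 on Transwell. A few of the 25 genes, such as AMMECR1 and SIPA1L1, hold a copy, and orientation was not checked in any of the 25. The probes of a snoRNA also lie within the host's unspliced RNA, so mature snoRNA and retained or unspliced intron cannot be told apart.

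**Figure D3:**
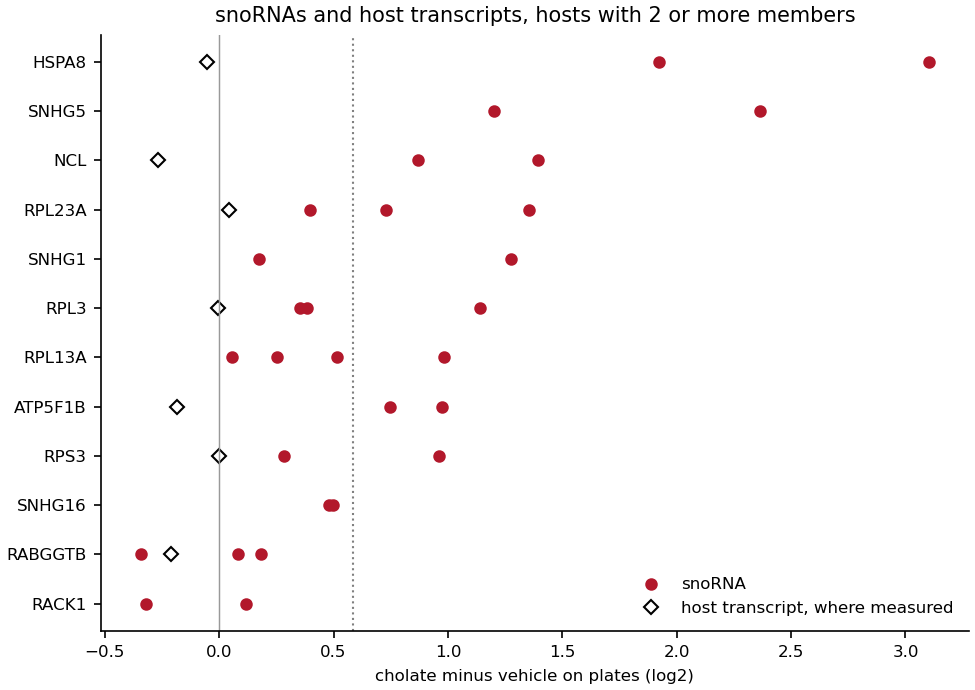
Cholate minus vehicle on plates in log2 units (horizontal axis) for genes that hold 2 or more members, leaving out 1 such gene; filled circles are snoRNAs, open diamonds the host's own probe set where measured, each a difference of 2 arrays, and the dotted line marks 1.5-fold. The HSPA8 transcript lies at -0.05, and its 2 snoRNAs lie at 1.92 and 3.10.

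By kind of gene, the 21 members within ribosomal protein genes all lay above 0 on plates, against 47.9% of all genes. Their median was 0.43, with 8 at 1.5-fold. The 12 members within SNHG genes or ZFAS1 had a median of 0.59, with 6 at 1.5-fold, and the 27 within other genes a median of 0.18, with 11 at 1.5-fold. On Transwell the medians were 0.15, 0.16 and 0.12. Differences among these kinds were not tested.

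GAS5-hosted C/D box snoRNAs had a plate median of 1.62 over 7 genes, all 7 at 1.5-fold, and a Transwell median of 0.58. H/ACA and Cajal body RNAs, which guide pseudouridylation or modify spliceosomal RNAs, had a plate median of 0.32 over 77 genes, with 19 at 1.5-fold (24.7%), and a Transwell median of 0.11. Spliceosomal RNAs had 0.22 and 0.10 over 15 genes, with 4 at 1.5-fold on plates (26.7%). MicroRNA precursors had 0.06 and 0.04 over 173, with 7 at 1.5-fold on plates (4.05%). The imprinted SNORD113 to SNORD116 families had 0.07 and 0.02 over 46 genes, of which 9 reached the floor and 2 were at 1.5-fold on plates (4.35%). Probe sets with no listed gene had medians of 0.06 and 0.03, and 10.6% of them were at least 1.5-fold higher on plates. At least 1.5-fold lower in the Transwell minus plate response were 33.9% of the members and 1.69% of all genes. The share was 100% among GAS5-hosted RNAs, 23.4% among H/ACA and Cajal body RNAs and 33.3% among spliceosomal RNAs. Among the imprinted families the share was 8.70%, among microRNA precursors 5.20% and among probe sets with no listed gene 10.4%.

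**Figure D4:**
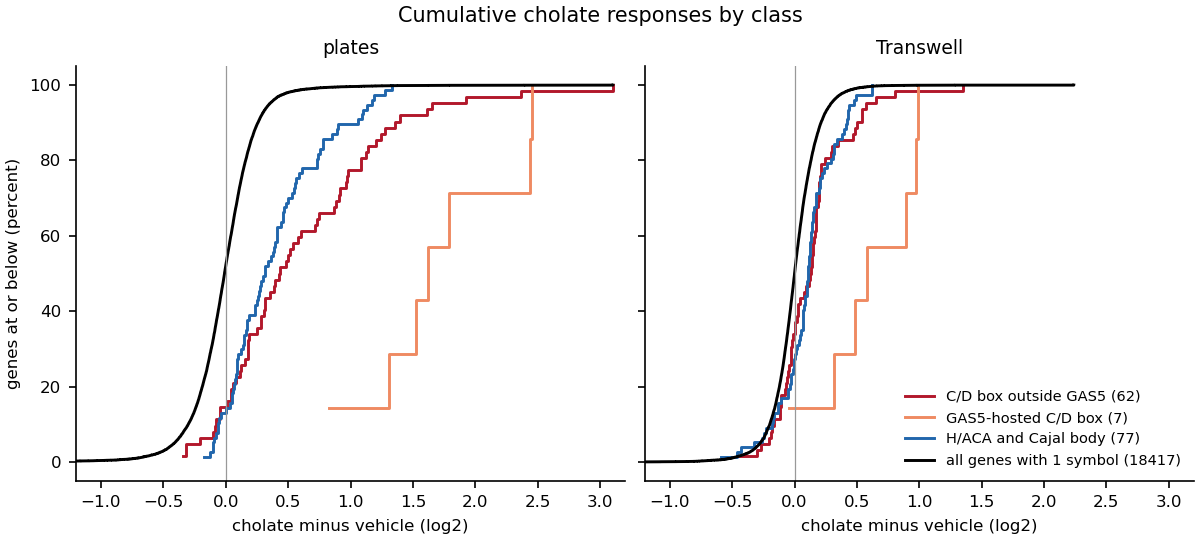
Share of genes at or below each value (vertical axis, percent; a few genes lie beyond the left edge) against cholate minus vehicle in log2 units (horizontal axis), on plates (left) and Transwell (right), for C/D box snoRNAs outside GAS5, GAS5-hosted ones, H/ACA and Cajal body RNAs, and all 18417 genes. On plates the medians are 0.43, 1.62, 0.32 and -0.01.

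Genes of the proteins that build or process these RNAs, in lists put together with earlier results known, had medians below 0 on plates, here and with each of the 3 other scalings. The median over all genes was also below 0 in each of these, at -0.01 here. Among C/D particle proteins, FBL, the methyltransferase fibrillarin, stood at -0.04 on plates and 0.01 on Transwell, NOP58 at -0.15 and 0.04, and RRP9, the U3-specific protein, at -0.26 and 0.05. Of 15 measured snoRNP assembly genes 2 lay above 0 on plates (13.3%, against 47.9% of all genes), with a median of -0.16. At 1.5-fold 0 were higher and 1 was lower (6.67%, against 1.92% of all genes). The lower one was ZNHIT6, an assembly factor (-0.87 on plates and 0.01 on Transwell). RUVBL1, an assembly ATPase, stood at -0.44 and 0.11, NOLC1 at -0.49 and -0.17, and NUFIP1 at 0.17 and 0.24. PHAX, which the rule does not name, stood at -0.31 and 0.17.

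Of 39 measured ribosome biogenesis genes 2 lay above 0 on plates (5.13%, against 47.9% of all genes), with a median of -0.28. At 1.5-fold 0 were higher and 2 were lower (5.13%, against 1.92% of all genes). The 2 lower ones were RRS1 (-0.86 on plates and 0.05 on Transwell) and NOP14 (-0.61 and -0.15). DKC1, the H/ACA pseudouridine synthase, stood at -0.50 and -0.16 and RRP12 at -0.38 and -0.25. UTP14A, which the rule does not name, stood at -0.46 and 0.26. Exonucleases and end-processing factors had a median of -0.12 on plates over 27 genes, with 0 higher and 1 lower (3.70%, against 1.92% of all genes), the exosome subunit EXOSC3 (-0.64 and -0.04). XRN2 stood at -0.35 and -0.04, EXOSC10 at -0.22 and -0.16 and EXOSC7 at -0.31 and -0.07. The rule does not name EXOSC4 (-0.12 on plates and 0.49 on Transwell) or SSB (-0.32 and 0.13), whose signs differ between supports. Splicing and debranching factors had a median of -0.08 over 14 genes, with 0 at 1.5-fold. PRPF19 stood at -0.22 and -0.10, PRPF8 at -0.06 and -0.26, EFTUD2 at -0.18 and -0.12 and DHX15 at -0.21 and -0.03. A list of 54 known host transcripts, 33 of them measured, had a median of -0.08 and 0 members at 1.5-fold. Among all genes 1.35% were higher and 1.92% lower on plates, so these counts of 0 are near the share of all genes. In the host list, CCAR1 stood at -0.23 and -0.19, SF3B3 at -0.21 and -0.16 and TNPO2 at -0.12 and -0.26.

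The last comparison set Transwell against plates in each treatment. It uses the same 4 arrays, and each of its differences shares an array with a cholate response. In cholate the median Transwell minus plate difference was -0.19 log2 units, with 18 of 62 members above 0 (29.0%, against 51.5% of all genes). There 14 were at least 1.5-fold lower (22.6%, against 2.92% of all genes). The 2 at least 1.5-fold higher were SNORD41 and SNORD96A (3.23%, against 3.09%). In vehicle the median was 0.21, with 52 of 62 above 0, while the median over all genes was 0.01 in cholate and 0.00 in vehicle. At least 1.5-fold higher in vehicle were 2 members, SNORD30 and SNORD41 (3.23%, against 1.56%), and 0 were lower, against 2.51%.

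**Figure D5:**
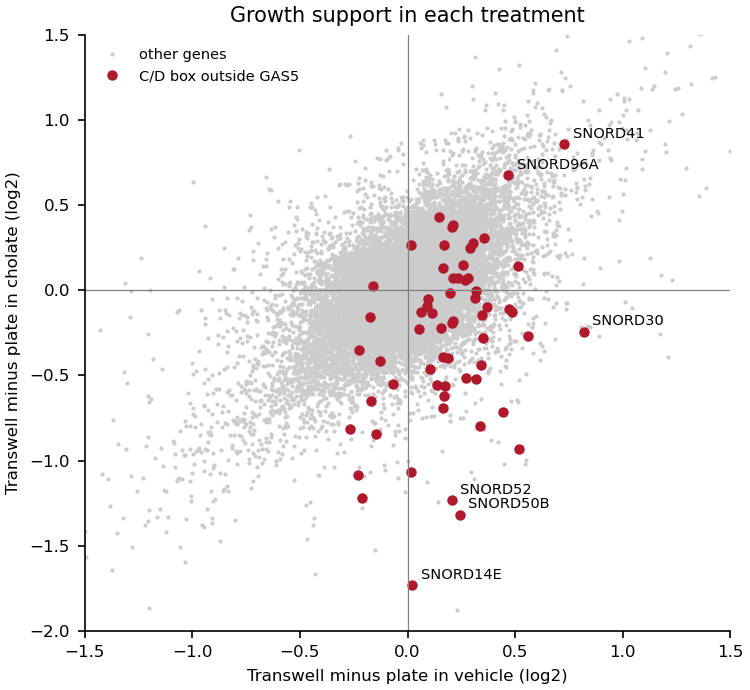
Transwell minus plate in cholate (vertical axis) against the same in vehicle (horizontal axis), both in log2 units; red points are the 62 members and grey points the other genes, of which some lie beyond the axes. SNORD41 (0.86 in cholate, 0.73 in vehicle) lies at the upper right and SNORD14E (-1.73 in cholate, 0.02 in vehicle) at the bottom.

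SNORD41, carried by the nuclear import gene TNPO2, was the single member at 1.5-fold in both treatments (1.61%, against 0.89% of all genes higher). It read 9.46 on Transwell and 8.60 on plates in cholate, and 9.28 on Transwell and 8.55 on plates in vehicle (0.86 and 0.73), so that both Transwell values lay above both plate values. TNPO2 itself stood at 0.07 in cholate and 0.21 in vehicle. SNORD96A read 7.18 on Transwell and 6.51 on plates in cholate, and 7.30 and 6.83 in vehicle (0.67 and 0.47). SNORD57 of NOP56 stood at 0.31 in cholate and 0.36 in vehicle, SNORD33 at 0.28 and 0.31 and SNORD105 at 0.25 and 0.29, with all values of SNORD105 under the floor. These members were named for a difference of the same sign in both treatments, so higher Transwell values in both follow from the choice.

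Above 0 in both treatments were 17 members (27.4%), against 34.2% of all genes. Below 0 in both were 9 members (14.5%), against 32.5%, with 0 at 1.5-fold in both, against 1.35% of all genes. The lowest by the smaller difference were SNORD63 of HSPA9 (-0.81 in cholate and -0.27 in vehicle), SNORD82 (-1.09 and -0.23), SNORD7 (-0.35 and -0.23), SNORD51 (-1.22 and -0.21) and SNORD15A (-0.65 and -0.17). More often the sign changed: 35 of 62 members were lower on Transwell in cholate and higher on Transwell in vehicle, a pattern shown by 15.8% of all genes. SNORD30 read 10.37 on Transwell and 10.61 on plates in cholate, and 10.16 on Transwell and 9.34 on plates in vehicle.

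Plate cholate was the highest of the 4 arrays for 39 of 62 members (62.9%), against 27.7% of all genes. Plate vehicle was the lowest for 44 (71.0%), against 23.6%. For 30 members both held, and the share of all genes for which both held was not counted. Median levels over the members were 7.66 in plate cholate, 6.80 in plate vehicle, 7.23 in Transwell cholate and 7.13 in Transwell vehicle. With 1 pool per condition, an effect of cholate on plates cannot be told apart from a pool that was high or low by itself.

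The single test the 4 arrays allow is the additive fit of support and treatment with limma, adjusted over all 33297 probe sets by Benjamini-Hochberg. For cholate 0 of 62 members passed, as did 0 probe sets of the array; 15 members, 14 of them higher, had an unadjusted p under 0.05, against 8.81% of all probe sets. The smallest adjusted p of a member was 0.488, for SNORD43. For support 0 members and 0 probe sets passed, 9 members had an unadjusted p under 0.05, 7 of them higher on Transwell, against 15.7% of all probe sets, and the smallest adjusted p was 0.181, for SNORD41. The residual of this fit is the difference between the 2 responses.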

How the data were processed

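Deposited values were log2 intensities, 1 per probe set and array, made by the authors with RMA per the submitters' processing notes; no source used here names the software, its version or the definition of the probe sets. RMA gives the arrays similar distributions and compresses differences near background. Gene names came from the platform annotation: 19460 of 33297 probe sets had 1 symbol, 1754 several and 12083 none listed. All 62 members were found by gene number in the RefSeq table of GRCh38.p14, which also gave the genes that hold them (the smallest span). Positions of probe sets are not given because their build was not stated.

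Members and lists were chosen with earlier results of these data known. Differences are between single arrays, counted at 1.5-fold without a filter on level, over members and over all genes with 1 symbol (probe set of highest mean). The floor is the 40th percentile of the mean over 4 arrays. The test used limma 3.58.1 (lmFit, eBayes) in R 4.3.3; counting and fit were tested on simulated data. Pairs of arrays correlated at 0.989 to 0.995. P-values set each effect against the difference between the 2 responses, pooled by eBayes over all probe sets, and hold no spread between replicates.

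Genes were named by rule: the 10 highest and 5 lowest for cholate and 5 and 5 for support by the smaller of the paired absolute differences of the same sign, 3 and 3 by mean level and by difference of responses, processing RNAs, families of 3 or more per host, and up to 4 per list. List genes were ranked by the absolute value of the mean of their 2 responses, which disfavours genes whose signs differ between supports. One family that the rule names is not reported here. Others (SNORD30, SNORD51, SNORD52, SNORD37, the members between 1.5-fold and 2-fold, and the 4 start regions) were chosen after their values were seen.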

Additional observations from a re-analysis of the deposited data

Results flagged for a closer look

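Differences with opposite signs under the same contrast, each at least 1.2-fold, were looked for among the members named by rule and found for 6. The share of all genes with such differences was not counted, and none of these differences was tested. SNORD20, with all 4 values under the floor, stood at 0.87 log2 units for cholate on plates and -0.27 on Transwell, a gap of -1.14. For Transwell minus plate, these 6 members stood lower on Transwell in cholate and higher in vehicle. So did SNORD59A (-0.44 in cholate and 0.34 in vehicle) and SNORD59B (-0.28 and 0.35), which the rule does not name. SNORD14C stood at -0.93 in cholate and 0.52 in vehicle (a gap of -1.45), SNORD12C at -0.71 and 0.44 (-1.16), SNORD20 at -0.80 and 0.34 (-1.14), SNORD4A at -0.52 and 0.32 (-0.84), SNORD34 at -0.27 and 0.56 (-0.83) and SNORD56B, with all values under the floor, at -0.52 and 0.27 (-0.79).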

How the results depend on the processing

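No paired analysis was possible because each condition has 1 array, and no replicate could be left out. Over median centring, a further quantile normalization, cyclic loess, the floor, 1 member per snoRNA number and 3 choices added after seeing the data (1 member per host gene, no copies or pseudogenes, no value under the floor), every median kept its sign. It ran from 0.36 to 0.46 for cholate on plates, 0.08 to 0.14 on Transwell, -0.22 to -0.15 for Transwell minus plate in cholate, 0.17 to 0.22 in vehicle and -0.43 to -0.37 for the difference of responses. The plate medians of the 6 lists also kept their sign under the 3 scalings. Over all genes the plate median was itself -0.08 with median centring, -0.04 with the further quantile normalization and -0.02 with cyclic loess. With that quantile normalization the host list (-0.05) and the splicing and debranching list (-0.06) lay near the median of all genes. The search for C box letters in the snoRNAs was not run. Leaving out SNORD64 and SNORD107 to SNORD109 removed no member. Taking the mean of all probe sets of a gene could change no member, because each has 1 probe set. With 1 member per snoRNA number, and with 1 per host gene, 1 member was 1.5-fold higher on Transwell and 1 on both supports; with 1 per host gene, fewer members being counted, 1 was higher on Transwell than on plates in cholate and 1 in vehicle. At 1.2-fold 40 members were higher and 3 lower on plates (all genes 9.61% and 12.5%), 12 and 3 on Transwell (6.42% and 5.59%), and 12 and 1 on both (1.68% and 2.38%). For Transwell minus plate 9 were higher and 27 lower in cholate (16.5% and 14.0%), 23 and 1 in vehicle (12.0% and 12.9%), and 4 and 1 in both (6.72% and 6.30%), so that the 9 and the 4 of 62 were near the share of all genes. At 2-fold 14 were higher on plates (0.391% of all genes), 1 on Transwell (0.0380%) and 1 on both (0.0163%). For Transwell minus plate 0 were higher in cholate (0.440%), 0 in vehicle (0.358%) and 0 in both (0.212%), and 6 were lower in cholate (0.624%). No member passed limma under the floor, quantile, loess or intensity trend settings. An unadjusted limma p under 0.05 was reached by 14 to 17 members for cholate, against 8.41% to 10.8% of all probe sets. For support it was reached by 6 to 8 members, below the share of all probe sets (15.3% to 22.6%). Signal near background limits the 10 members with a value under the floor.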
